A study of Mus musculus with 20 samples.

Results

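Chromatin sites that were accessible in fetal, basal and luminal progenitor cells of the mouse mammary gland but carried no peak in mature luminal cells are described here. They were found by merging the authors' pooled ATAC-seq peak lists of 4 normal cell types on 19 autosomes and X, with overlapping or touching peaks joined. Of 128797 merged regions, 8330 (6.47%) had a peak in the fMaSC, basal and luminal progenitor lists and none in the mature luminal list. The presence and absence of these peaks chose the regions, so their counts, widths and peak strengths are a description with no test. ATAC-seq uses the Tn5 transposase to cut and tag DNA that is not covered by nucleosomes, so a peak marks an accessible site.

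The normal samples were sorted from mammary glands of unaltered C57BL6J mice, 2 samples per cell type. The fMaSC samples came from embryos at day 18, and the basal, luminal progenitor and mature luminal samples from adults whose age the labels do not give. A pair of further lists came from tumours that the PY230 mouse mammary tumour cells formed after transplantation into C57BL6J mice. One holds regions called open and the other regions called closed in luminal SOX10-high cells (3 samples), read here against luminal SOX10-low cells (3 samples). PY230 is 1 cultured line, and the tumours' hosts contribute their own cells unless the sort removed them. SOX10 is a transcription factor of the SoxE group, known for its role in neural crest cells. No list separates its samples or gives counts. Depth per sample is therefore unknown, and mice or tumours could not be compared in a test. Shares carry exact (Clopper-Pearson) 95% binomial intervals or, for differences, Newcombe 95% intervals. Where no region overlapped a list, the limit given is the share that 3 counts would make. All cover counting error over regions, which are not replicates of a cell type. The number of the 20 chromosomes that show a direction is given beside the main differences. No genome or annotation of the files' build, mm9, was used here, so regions are given by position (mm9, 1-based) with no gene and no sequence, and the labelled cell types were not checked against marker genes.

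The mammary epithelium has an outer basal layer of contractile myoepithelial cells and an inner luminal layer. In the luminal layer, progenitors are thought to supply the milk-secreting alveolar cells, and mature luminal cells sense oestrogen and progesterone. Accessible sites away from promoters are often enhancers, and the set that is open tends to differ between cell types more than the set of open promoters does.

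With all deposited peaks, a merged region lacking 1 type most often lacked the mature luminal one. The 8330 regions compared with 3205 that lacked only an fMaSC peak, 2464 that lacked only a luminal progenitor peak and 1996 that lacked only a basal peak. They made up 41.6% of the 20005 regions that had a luminal progenitor peak and no mature luminal peak. The count, and in one case the order, depended on which peaks were admitted. With each list's 30015 strongest peaks, 2938 regions met the rule, against 1723 lacking only fMaSC, 1171 lacking only basal and 497 lacking only luminal progenitor peaks. That setting also drops weaker mature luminal peaks, and 1866 of the 2938 lay in reported regions that have one, while 1072 overlapped the 8330. With fMaSC, basal and luminal progenitor peaks at or above the median fold of their list, and every mature luminal peak kept, 1637 regions met the rule, all within the 8330. The order then turned, since 3087 regions lacked only a luminal progenitor peak and 2257 only an fMaSC peak, and 1627 lacked only a basal peak.

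At nearly all of these regions the peaks of the 3 cell types coincided. They covered 8.18 Mb, with a median width of 884 bp (quartiles 655 and 1196 bp) and extremes of 214 and 7010 bp. Regions with a peak in all 4 types were wider, with a median of 1332 bp, and regions with an fMaSC and a basal peak alone were narrower, at 662 bp. Regions lacking only an fMaSC, a basal or a luminal progenitor peak were also narrower, with medians of 809, 706 and 703 bp. Exactly 1 peak of each of the 3 types was present in 7596 regions (91.2%). At least 1 base was common to the 3 types in 8207 regions (98.5%), and the other 123 were joined peaks with no base common to all 3. The common stretch had a median of 360 bp, or 45.1% of a region. Basal peaks covered the most of a region, with a median of 95.8%, against 66.8% for fMaSC and 66.3% for luminal progenitor peaks.

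Peak strength differed among the 3 lists that defined the sites. Each peak carries a fold, the enrichment over background that the authors' peak caller gave, and folds were compared only as percentiles within their own list. In these sorted bulk samples a lower fold and an open site in fewer cells cannot be told apart. The median fold was 8.61 in the fMaSC list (percentile 58.1), 8.62 in the basal list (percentile 54.1) and 5.82 in the luminal progenitor list (percentile 40.0). The luminal progenitor peak had the lowest of the 3 percentiles in 4572 regions (54.9%), the basal peak in 2011 (24.1%) and the fMaSC peak in 1747 (21.0%). The highest percentile was that of the fMaSC peak in 3900 regions (46.8%), the basal peak in 3204 (38.5%) and the luminal progenitor peak in 1226 (14.7%). These percentiles come from lists of unequal length, 79910, 80294 and 60030 peaks in the same order. When each list was limited to its 30015 strongest peaks, median percentiles were 50.8 in fMaSC, 45.6 in basal and 38.0 in luminal progenitor cells. Regions with a peak in all 4 types ranked higher, with median percentiles of 77.5 in fMaSC, 78.6 in basal and 73.6 in luminal progenitor cells. The groups lacking only 1 other type ranked below the sites in fMaSC and basal cells and somewhat above them in luminal progenitor cells. Medians were 45.8 in fMaSC and 45.4 in basal cells without a luminal progenitor peak. They were 40.6 in fMaSC and 44.9 in luminal progenitor cells without a basal peak, and 41.7 in basal and 44.9 in luminal progenitor cells without an fMaSC peak. Above the median of all 3 lists lay 1637 of the 8330 regions (19.7%), and 19 lay in the top 10% of all 3.

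**Figure D1:**
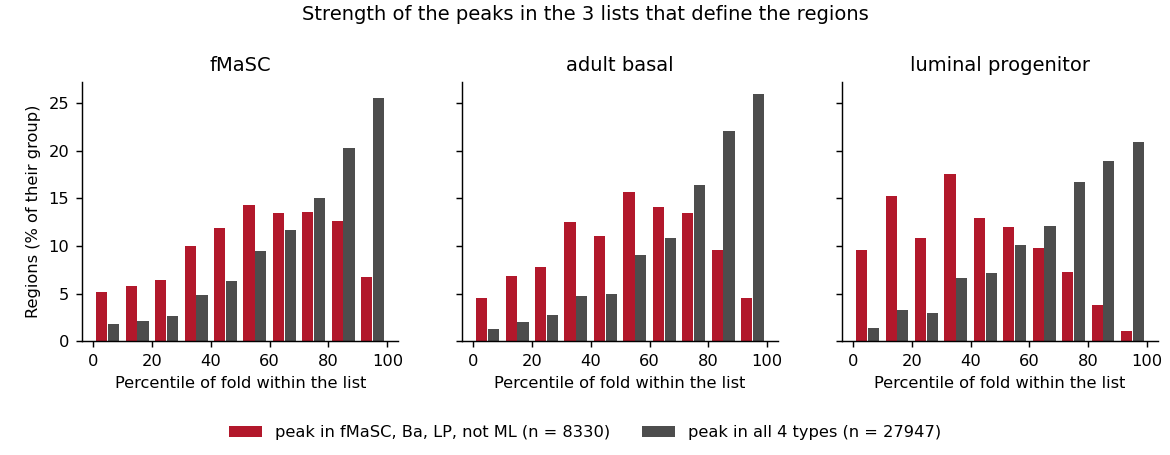
Share of regions (vertical axis, %) by the percentile of their strongest peak's fold within the fMaSC, adult basal and luminal progenitor (LP) lists (horizontal axis), for the 8330 regions with peaks in fMaSC, basal (Ba) and LP but not mature luminal (ML) cells and the 27947 regions with a peak in all 4 types. The regions without an ML peak lie toward the low end of the LP list, with 1.07% in its top 10%, against 20.9% of regions with a peak in all 4 types.

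The strongest of these sites, ranked by the lowest of the 3 percentiles, lay on chromosome 7 from 80341425 to 80343632. Its folds were 34.9 in fMaSC, 26.7 in basal and 26.2 in luminal progenitor cells, the last being the highest luminal progenitor fold among the 8330 regions. The next lay on chromosome 2 from 173244516 to 173246826, with folds of 39.8, 28.7 and 21.8 in the same order of types, and the third on chromosome 1 from 188488834 to 188490116, with 26.6, 23.1 and 20.2. The nearest mature luminal peaks were 22.9, 30.4 and 8.29 kb away. All 3 sites also lay in the authors' mature luminal URR list, described below. The third lay in the list open in SOX10-high PY230 cells as well.

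Some sites just inside the rule nearly touched a mature luminal peak. The regions closest to a mature luminal peak were separated from it by 16 bp on chromosome 13 (29729303 to 29730364) and by 29 bp on chromosomes 16 (77028663 to 77029297) and 8 (64057337 to 64059848). On the other side, the regions of all 4 types with the weakest mature luminal peaks had a mature luminal fold of 3.49, which is also the lowest in that list. They lay on chromosome 11 from 33103024 to 33104133, on chromosome 6 from 70906054 to 70907370 and on chromosome 7 from 100227682 to 100230285. The last of these had folds of 24.8 in fMaSC, 23.7 in basal and 18.7 in luminal progenitor cells. It lay in both the mature luminal URR list and the open PY230 list, although the rule leaves it out. In 167 of 27827 regions of all 4 types (0.600%), the mature luminal peak missed the bases that the other 3 types shared. Absence of a peak means that no peak passed the authors' q-value of 0.001 in the mature luminal list, not that the site had no signal.

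Mature luminal peaks were usually not far from these sites. The nearest one lay at a median of 8.88 kb (quartiles 3.12 and 23.4 kb), against 10.2 kb for the other regions without a mature luminal peak. It lay within 1 kb of 640 regions (7.68%), close to the 8.29% of all 69676 regions without a mature luminal peak, and within 10 kb of 4410 (52.9%). Luminal progenitor-only regions more often had one within 1 kb, at 13.5%, and fMaSC-only regions less often, at 6.17%. The absence of mature luminal peaks extended to the neighbouring regions more often than at merged regions in general. It did so about as often as at other regions without a mature luminal peak. Both adjoining merged regions had a mature luminal peak for 16.2% of the 8329 sites with neighbours on both sides, against 29.2% of regions of all 4 types and 24% of all merged regions. Neither had one for 41.1% of the sites, against 25.0% of regions of all 4 types. Among the other regions without a mature luminal peak, 17.8% had one in both neighbours and 39.5% in neither, close to the shares of the sites. With only peaks at or above the median fold of the 3 lists admitted, the share with mature luminal peaks on both sides was 32.1%, in a set of merged regions that then holds more mature luminal peaks by construction. The share within 1 kb was 4.19% with the strongest peaks and 3.49% with peaks within 500 bp joined.

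**Figure D2:**
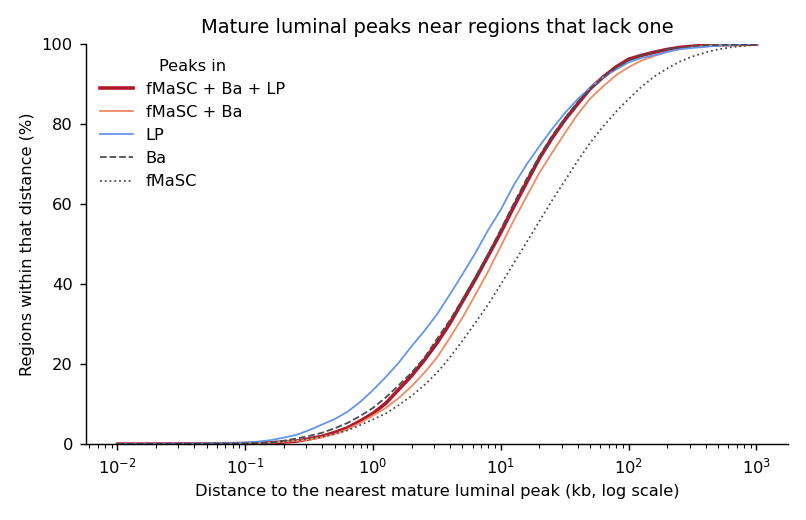
Cumulative share of regions (vertical axis, %) by distance to the nearest mature luminal peak (horizontal axis, kb, log scale), for regions without a mature luminal peak grouped by the types that have one. The curve of the 8330 fMaSC + Ba + LP regions lies close to that of basal-only regions, at 52.9% and 53.7% within 10 kb, and left of the fMaSC-only curve, at 40.0%.

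Most of the sites stood alone, and some formed short runs. Of the 8330 regions, 6766 (81.2%) had no other such region as a direct neighbour, and the rest formed 645 pairs, 72 runs of 3, 12 runs of 4 and 2 runs of 5. Another such region adjoined 18.8% of them, against 12.3% of all merged regions. The runs of 5 lay on chromosome 16 from 22517443 to 22549113, over 31.7 kb, and on chromosome 6 from 144114212 to 144214123, over 99.9 kb. Each held 2 regions of the mature luminal URR list and none of either PY230 list. A run of 4 on chromosome 1 from 17438913 to 17480497 had none of these lists. The densest 1 Mb window began at 98136698 on chromosome 10 and held 23 of the sites among 118 merged regions. Next came chromosome 13 from 94237448 and chromosome 18 from 65037854, where 1 Mb held 22 sites each, among 95 and 112 merged regions. Over chromosomes, the sites made up between 4.90% (chromosome 5) and 8.03% (chromosome 13) of merged regions, with a median of 6.68%. Chromosome X held 164 of them, or 1.97% (95% interval 1.68 to 2.29%), close to the 2.14% of all merged regions. With peaks at or above the median fold only, the share on X was 1.10%.

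The authors' UAR and URR lists, whose names the labels do not expand, are each named for 1 cell type. These lists rest on the same normal samples as the peaks, so their overlap is a description. The mature luminal URR list, whose regions lay mostly in peaks of the 3 other types, overlapped 856 of the 8330 sites, or 10.3% (9.63 to 10.9%), against 0.904% of all merged regions. From the side of that list, 828 of 1028 regions (80.5%, 78.0 to 82.9%) touched one of the sites. The other 7474 sites lacked a mature luminal peak without being on the list. Sites on it were stronger and wider. Their median percentiles were 82.1 in fMaSC, 74.3 in basal and 66.9 in luminal progenitor cells, against 54.5, 51.5 and 37.2 for the 7474 sites off the list, and their median width was 1236 bp, against 851 bp. By quartile of the luminal progenitor percentile, 1.35%, 3.82%, 7.47% and 28.0% of sites were on the list, from the weakest quartile to the strongest. A mature luminal peak lay within 1 kb of 19 sites on the list (2.22%), against 621 off it (8.31%). The share on the list was 21.9% with the strongest peaks of each list and 37.1% with peaks at or above the median fold.

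By score, the 3 highest mature luminal URRs each overlapped one of the sites. The first, with a score of 28517, lay over the site on chromosome 7 from 136953479 to 136954367, whose folds were modest at 10.1 in fMaSC, 5.60 in basal and 3.95 in luminal progenitor cells. The second, with a score of 24777, lay over chromosome 14 from 57916057 to 57917175, and the third, with 22433, over chromosome 6 from 82949745 to 82951044. The third was strong in fMaSC (fold 25.1) and basal cells (21.1) and had a luminal progenitor fold of 7.90. The sources used here do not give the scale of these scores.

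Other lists touched fewer of the sites. Basal UARs overlapped 459 sites, or 5.51%, against 4.8% of all merged regions. Those 459 had a median basal percentile of 83.3, against 52.8 for the other sites. Fetal UARs overlapped 87 sites (1.04%, against 1.06% of all merged regions), with a median fMaSC percentile of 93.9, against 58.1 for the other sites. Luminal progenitor UARs overlapped 19 sites (0.228%, against 0.273% of all merged regions), with a median luminal progenitor percentile of 82.2, against 40.0 for the other sites. The shares of fetal and luminal progenitor UARs were thus at the level of merged regions in general. None of the 8330 sites overlapped an fMaSC URR or a basal URR, which allows a share of up to 0.0360%, against 0.22% and 0.066% of all merged regions. A single site overlapped a mature luminal UAR, against 2.96% of all merged regions. It lay 182 bp from a mature luminal peak, on chromosome 5 from 91406136 to 91406689, and was singled out after its value was seen. Likewise, a single site overlapped a luminal progenitor URR (0.0120%, against 0.0225% of all merged regions). This site, also named after its value was seen, spanned 93576543 to 93577490 on chromosome 16. It lay 125 bp from a mature luminal peak, had a luminal progenitor fold of 3.74 and was in the closed PY230 list. No UAR or URR list covered 6948 of the sites (83.4%).

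Luminal PY230 tumour cells were not used to choose the sites, so the PY230 lists are an independent measure of them. Of the 8330 sites, 463 were on the list open in SOX10-high cells, or 5.56% (5.08 to 6.07%), against 1.88% of all merged regions. Only 63 were on the closed list, or 0.756% (0.582 to 0.967%), against 11% of all merged regions. Here and below, open and closed mean being on these lists. No site was in both lists, and 7804 (93.7%) were in neither. A site equally accessible in SOX10-high and SOX10-low cells would be in neither list, so absence from both does not mean an inaccessible site. From the side of the lists, 455 of 3208 open regions (14.2%, 13.0 to 15.4%) and 62 of 15108 closed regions (0.410%, 0.315 to 0.526%) touched a site. The open share exceeded that of all merged regions on 20 of 20 chromosomes, and the closed share was lower on 20 of 20. With the strongest peaks of each list, 3.61% of sites were open and 2.04% closed. With peaks at or above the median fold, 7.64% were open and 0.244% closed.

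The sites differed from every other group that lacked 1 type or none. Their open share of 5.56% compared with 0.404% in regions of all 4 types, a difference of 5.15 points (4.68 to 5.67) that was positive on 20 of 20 chromosomes. It exceeded the 0.499% of regions lacking only an fMaSC peak by 5.06 points (4.49 to 5.61), on 20 of 20 chromosomes. Regions lacking only a luminal progenitor peak were open in 0.162%, a difference of 5.40 points (4.86 to 5.92) on 19 of 20 chromosomes. Regions lacking only a basal peak were open in 2.15%, a difference of 3.40 points (2.53 to 4.16) on 19 of 20 chromosomes. The difference from regions lacking only a luminal progenitor peak was 2.80 points with the strongest peaks. Closed shares ran the other way on 20 of 20 chromosomes in each of these comparisons. They were 0.756% at the sites, against 7.33% in regions of all 4 types, 24.3% in regions lacking only fMaSC, 25.7% in regions lacking only luminal progenitor and 19.3% in regions lacking only basal peaks. A low closed share was found for every pattern without a mature luminal peak, between 0.674% and 2.06%.

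**Figure D3:**
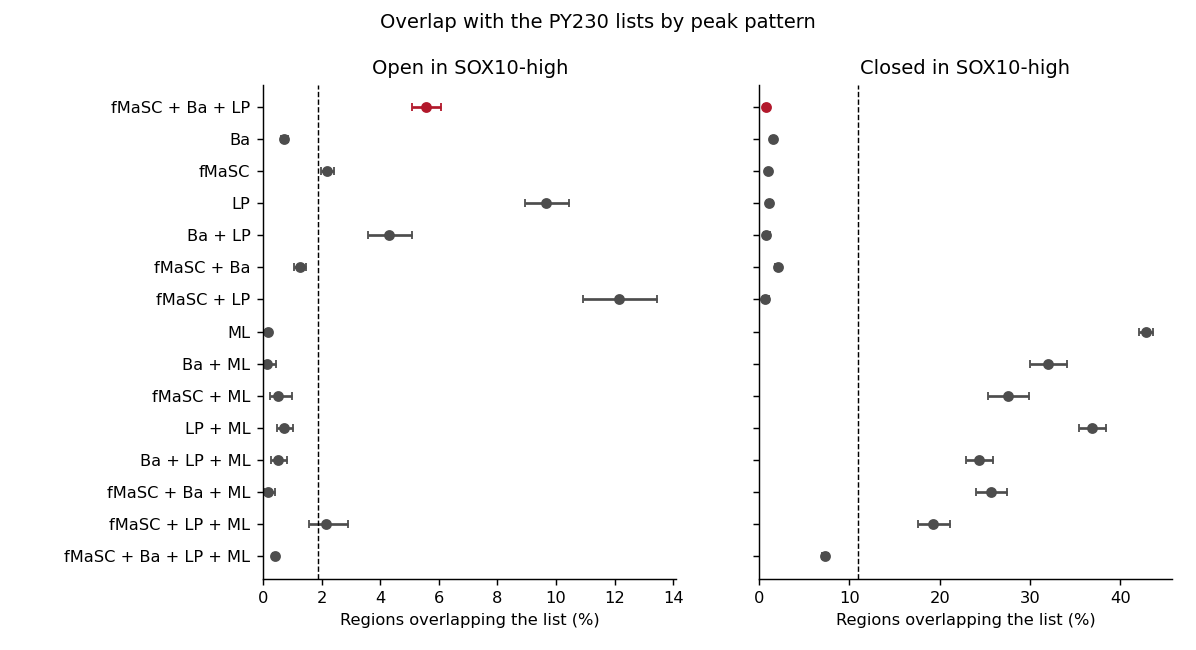
Share of merged regions (horizontal axes, %, with exact 95% intervals) that overlap the PY230 list open (left) or closed (right) in SOX10-high cells, for the 15 peak patterns (rows), with the share of all merged regions as dashed lines. The fMaSC + Ba + LP regions (red, top row) lie at 5.56% open and 0.756% closed, below LP and fMaSC + LP regions in open share and far below all patterns with an ML peak in closed share.

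Among regions without a mature luminal peak, the open share went with luminal progenitor peaks and was lower where a basal peak was present. Regions with a luminal progenitor peak and no mature luminal peak, the sites included, were open in 7.51%, against 1.36% of those with neither. Among those with a luminal progenitor peak, the sites at 5.56% lay above regions with basal and luminal progenitor peaks alone (4.29%) and below regions with a luminal progenitor peak alone (9.66%) or fMaSC and luminal progenitor peaks alone (12.1%). The difference from the last was -6.58 points (-7.95 to -5.29), and the sites were lower on 19 of 20 chromosomes. The difference from regions with basal and luminal progenitor peaks alone was 1.27 points (0.338 to 2.12), and the sites were higher on 15 of 20 chromosomes. It was 0.313 points (-0.891 to 1.40) with the strongest peaks and 1.75 points (-0.598 to 3.82) with peaks at or above the median fold, and both of these intervals take in 0. Against regions with fMaSC and basal peaks alone, open in 1.25%, the sites were higher by 4.31 points (3.79 to 4.85), on 20 of 20 chromosomes, and by 1.78 points with the strongest peaks. These 3 comparisons were chosen after the shares of all patterns were seen.

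Strength of the luminal progenitor peak went with the open share of the sites. From the weakest to the strongest quartile of the luminal progenitor percentile, 3.19%, 4.31%, 4.93% and 9.69% of the sites were open. Closed were 27 of 2069 sites in the weakest quartile, and 0.843%, 0.658% and 0.236% of sites in the 3 that followed. At the same percentiles, regions with fMaSC and luminal progenitor peaks alone were open in 7.76%, 11.3%, 14.1% and 20.9%, above the sites in all 4 bins with intervals that did not overlap. Regions with basal and luminal progenitor peaks alone were open in 3.18%, 2.82%, 5.94% and 8.06%, and their intervals overlapped those of the sites in all 4 bins. At matched luminal progenitor strength, regions with a basal peak were thus less often open than those with fMaSC and luminal progenitor peaks alone. No difference per bin was computed between the sites and regions with basal and luminal progenitor peaks alone. Their overlapping intervals therefore do not decide whether these groups differed at matched strength. Regions of all 4 types showed no such order and stayed between 0.272% and 0.482% in all 4 bins. The rise was not limited to regions without a mature luminal peak. Regions lacking only a basal peak were open in 0.529%, 1.31%, 2.18% and 3.65%. Those with luminal progenitor and mature luminal peaks alone were open in 0.158%, 0.176%, 1.31% and 1.75%.

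**Figure D4:**
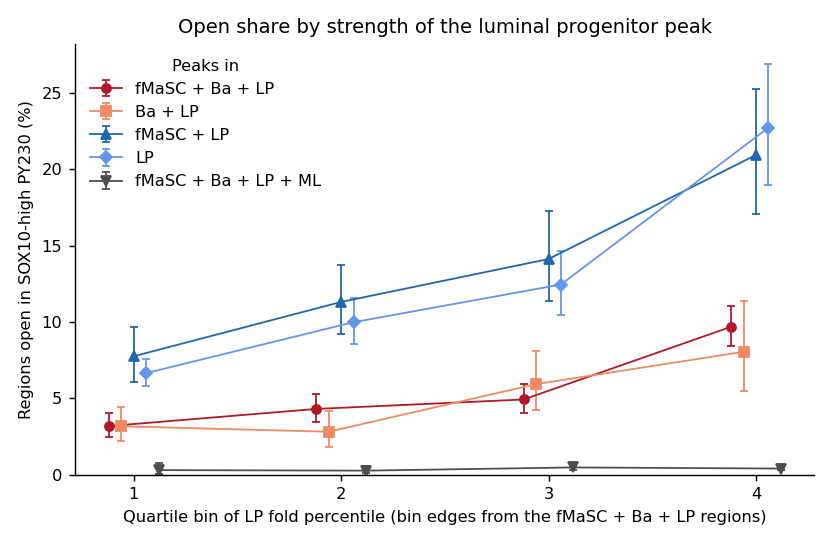
Share of regions on the list open in SOX10-high PY230 cells (vertical axis, %, with exact 95% intervals) in 4 bins of the luminal progenitor (LP) fold percentile (horizontal axis, weakest to strongest), for 5 peak patterns. The fMaSC + Ba + LP regions (red) reach 9.69% in the strongest bin, beside 8.06% for Ba + LP, 20.9% for fMaSC + LP and 22.7% for LP alone.

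Within the sites, the fetal and basal peaks went with the open share in different ways. From the weakest to the strongest quartile of the fMaSC percentile, 4.06%, 4.27%, 5.85% and 7.95% were open. By basal percentile the shares were 6.85%, 5.64%, 4.49% and 5.37%, with no rise. Sites whose luminal progenitor peak had the highest of the 3 percentiles were open in 8.16% (6.69 to 9.83%), those led by fMaSC in 6.23% (5.49 to 7.04%) and those led by basal cells in 3.75% (3.11 to 4.46%). The 463 open sites had median percentiles of 67.6 in fMaSC, 48.5 in basal and 53.2 in luminal progenitor cells, against 58.1, 55.3 and 40.0 for the 7867 others. Their median width was 940 bp, against 880 bp. Sites in basal UARs were open in 13 of 459 cases (2.83%, 1.52 to 4.79%), against 5.72% of the other sites. Of the 87 sites in fMaSC UARs, 12 were open (13.8%, 7.34 to 22.9%), and of the 19 in luminal progenitor UARs, 4 were (21.1%, 6.05 to 45.6%).

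Sites on the mature luminal URR list were open more often than the rest. Of 856 such sites, 104 were open (12.1%, 10.0 to 14.5%), against 359 of 7474 off the list (4.80%, 4.33 to 5.31%). None of the 856 was closed, which allows a share of up to 0.350%, against 63 of 7474 (0.843%). URR sites also had stronger peaks in all 3 lists, luminal progenitor included. Open shares on and off the list were not compared at matched strength, so the part of peak strength in this difference was not tested. Closed sites lay near mature luminal peaks. The 63 closed sites were a median of 3.17 kb from one and 20 of them (31.7%) had one within 1 kb, against 8.94 kb and 7.50% for the other sites. Without the sites that had a mature luminal peak within 1 kb, 0.559% were closed.

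The highest-scoring open PY230 region to touch the sites ranked 5 of 3208 by score. It spanned chromosome 15 from 78991901 to 78997900 and held 2 of them, from 78992025 to 78995016 and from 78995108 to 78997087, which were 91 bp apart. The first had folds of 5.06 in fMaSC, 13.6 in basal and 6.03 in luminal progenitor cells, and the second 9.62, 6.90 and 3.95. Both were mature luminal URR sites. The next lay on chromosome 18 from 20898132 to 20901059, also a mature luminal URR site, with folds of 20.3 in fMaSC, 14.0 in basal and 18.5 in luminal progenitor cells. Of the closed sites, the one with the highest score lay on chromosome 9 from 15311703 to 15312676, 729 bp from a mature luminal peak, and its closed region ranked 3276 of 15108 by score. These best ranks come from 455 open and 62 closed regions that touched the sites, so they cannot be compared between the lists. Over the whole open list, regions touching the sites had a median score of 45.2, against 44.4 for the others. In the closed list the medians were 52.0 and 124.6.

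Open sites were unevenly spread along the genome. The open share of the sites ranged over chromosomes from 2.93% (chromosome 9) to 11.4% (chromosome 18), with a median of 4.37%, and chromosome 8 had 11.1%. All merged regions varied in a similar way, from 1.02% on chromosome 9 to 3.44% on chromosome 18. One cluster stood out on chromosome 8, in a window chosen after these shares were seen. In the 1 Mb from 87252129, 10 of 14 sites were open, and these 10 lay within 67.0 kb, from 87252129 to 87319162. Over all 109 merged regions in that window, 16 were open, so regions other than the sites were open there too. Of the 59 merged regions with a mature luminal peak in that window, 0 were open. The rest of chromosome 8 had 9.05% of its sites open. The next densest windows held 4 open sites of 10 each, from 36550579 on chromosome 15 and from 39081369 on chromosome 18. Over all merged regions, 7 of 121 were open in the window on chromosome 15 and 12 of 84 in that on chromosome 18.

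**Figure D5:**
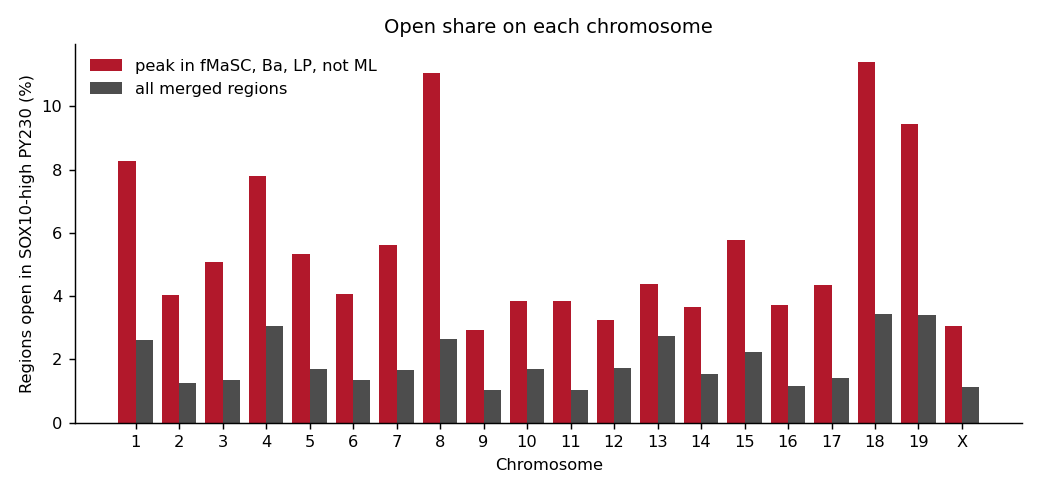
Share of regions on the list open in SOX10-high PY230 cells (vertical axis, %) on each chromosome (horizontal axis), for the 8330 fMaSC, Ba and LP regions without an ML peak (red) and all merged regions (grey). The red bars exceed the grey ones on 20 of 20 chromosomes and reach 11.4% on chromosome 18 and 11.1% on chromosome 8.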

How the data were processed

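Of 20 ATAC-seq samples, the 8 normal ones entered 4 pooled peak lists, and 10 further region lists were used. MACS2 2.1.1, SICER, Bowtie 0.12.8, bedtools 2.20.1, SAMtools 1.3.1, FastQC and the mm9 build were used in roles not stated, per the submitters' processing notes. The treatment of duplicates, mitochondrial reads, repeats and Tn5 offsets, which sets which peaks exist, is likewise not given in the sources consulted. Per the file names and labels, the authors called peaks on both samples of a type together at a q-value of 0.001, and each peak's value is a fold, a ratio over the peak caller's background. The UAR, URR and PY230 lists carry a score deposited by the authors, of unstated scale, with edges on a 100 bp grid. Depth per sample is unknown.

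Peak lists were kept as deposited (1-based), the grid lists were moved by 1 base, and 3 mitochondrial peaks per list were left out. Overlap means at least 1 bp. A region's strength in a list is the percentile of its highest fold among the list's nuclear peaks. Regions named are 3 per rule: strongest, nearest the rule's edge, highest score, densest 1 Mb windows and longest runs. The sites, comparisons and lists were chosen with earlier results of these data known. Gene lists and motifs were not used, since no mm9 genome or annotation was. Alternatives changed the peaks admitted, widths, joining distance, chromosomes, overlap and definition of a site. Tables were handled in pandas 2.3.3 and numpy 2.4.6, intervals came from scipy 1.17.1 (Python 3.11.15), and the functions were tested on simulated data against bedtools 2.31.1.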

Additional observations from a re-analysis of the deposited data

How the results depend on the processing

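Of 160 recalculations of 19 results, 115 stayed within the counting interval of the reported value (for the number of sites, within 1.5 times) and 45 moved. Only the 7 differences in open share have a direction, and 0 of their 70 recalculations changed sign. In 2 of these 70 the interval took in 0, both for the difference from basal with luminal progenitor, and the median-fold value was 1.75 points (-0.598 to 3.82). The order of the groups lacking 1 type turned with peaks at or above the median fold, where 1637 regions lacked only mature luminal and 3087 only luminal progenitor peaks. That setting thins the other lists but keeps every mature luminal peak, so the turn cannot be told apart from its construction. No paired analysis was possible because each list pools both samples, and for the same reason no sample could be left out. The cause of a move was not tested beyond what an alternative's construction sets.

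With the 30015 strongest peaks of each list, there were 2938 sites, 1866 of them in reported regions with a weaker mature luminal peak, with a median width of 1303 bp, a common base in 99.6% and median percentiles of 50.8 in fMaSC and 45.6 in basal cells. They were open in 3.61%, closed in 2.04%, on the mature luminal URR list in 21.9%, on X in 1.50%, within 1 kb of a mature luminal peak in 4.19% and between 2 merged regions with one in 21.9%. Differences in open share were 2.80 points from regions lacking only luminal progenitor, 3.49 lacking only fMaSC, 3.54 from all 4 types, 0.313 from basal with luminal progenitor and 1.78 from fMaSC with basal.

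With fMaSC, basal and luminal progenitor peaks at or above the median fold, the 1637 sites had a median width of 1152 bp, a common base in 99.5% and median percentiles of 59.3, 51.3 and 34.6 in these types. They were open in 7.64%, closed in 0.244%, on the URR list in 37.1%, on X in 1.10%, within 1 kb of a mature luminal peak in 5.99% and between 2 regions with one in 32.1%. Differences in open share were 7.28 points from regions lacking only luminal progenitor, 5.42 lacking only basal, 6.88 lacking only fMaSC, 7.35 from all 4 types, -8.14 from fMaSC with luminal progenitor and 5.48 from fMaSC with basal.

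With peaks of 500 bp, the median width was 626 bp, 97.2% had a common base, 0.980% were closed, 8.54% lay within 1 kb of a mature luminal peak and the difference from fMaSC with luminal progenitor was -5.05 points. With peaks within 500 bp joined, the median width was 943 bp, 96.9% had a common base, 3.49% lay within 1 kb of a mature luminal peak and 18.5% between 2 regions with one. Without sites that had a mature luminal peak within 1 kb, 0.559% were closed and 14.1% lay between 2 regions with one. Autosomes alone, sites with a common base, overlap of at least 50%, merged regions of 500 bp and leaving out chromosome 18 (added after the data were seen) moved none of the results computed under them.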
